A study of Homo sapiens with 12 samples.

Results

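The genes described here are VHL, the oxygen sensors and subunits of the hypoxia-inducible factors (HIF), and well-known HIF target genes outside the glycolysis enzymes. They were taken by symbol from a list, and all 36 were found among the 58302 genes of the files. The 12 RNA libraries came from 769-P and ACHN cells, which are established human renal carcinoma lines and which the labels call clear cell renal cell carcinoma (ccRCC) cells. Cells of each line were transfected for 48 h with siRNA against NUF2 (si-NUF2, a mixture of siRNAs against this kinetochore gene) or with a control siRNA (si-NC), with 3 replicates per group, and no other agent is named. No culture in low oxygen is named in the sources used here. Each line stands for itself alone, so the level of VHL and every other property in which the lines differ cannot be told apart. The sources do not say that replicates were separate cultures, and p-values then measure only the spread between these libraries.

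VHL is the substrate receptor of a ubiquitin ligase. When oxygen is present, the prolyl hydroxylases EGLN1, EGLN2 and EGLN3 modify the alpha subunits HIF1A and EPAS1, VHL binds the modified subunits, and they are degraded. HIF1AN, an asparaginyl hydroxylase, blocks their contact with coactivators. An alpha subunit that escapes pairs with ARNT and binds hypoxia response elements near genes of angiogenesis, pH balance, metabolism and matrix. VHL is the gene most often lost in ccRCC. This control acts on the HIF proteins, which RNA levels do not show.

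The recovered reads per library ran from 29244018 to 38864846, which bounds the precision of low genes. NUF2 was at 17.8 to 19.4 FPKM under si-NC and 3.01 to 4.17 FPKM under si-NUF2 in 769-P cells (adjusted p = 0.00129). In ACHN cells it was at 11.6 to 15 FPKM and 2.16 to 5.14 FPKM, without overlap (adjusted p = 0.224, and 0.0122 with the replicate number as a block). FPKM are fragment counts scaled for exon length and library size, so levels of different genes can be compared per length. Of 10 renal epithelial markers, 8 were at 0.5 FPKM or more in every 769-P library and 9 in every ACHN library, PAX8 among them. No leukocyte, endothelial or erythroid marker reached that level in every library of any group, and of 6 fibroblast and pericyte markers, 1 reached it in every 769-P library and 2 in every ACHN library. The libraries numbered 2 of ACHN stood apart from replicates 1 and 3 under both siRNAs, so that results with ACHN libraries were also computed without them.

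VHL messenger RNA was nearly absent from 769-P cells. VHL stood at 0.0322, 0.0148 and 0.0220 FPKM in the 769-P si-NC libraries and at 0.0303, 0.0165 and 0.0231 FPKM in the si-NUF2 libraries. In ACHN cells it was 23, 15 and 23.9 FPKM under si-NC and 25.1, 14.9 and 24.5 FPKM under si-NUF2. No library of one line came near the other. The 769-P values rest on 2 to 4 reads per library against 2181 to 3864 reads in ACHN libraries. Over the 3 si-NC libraries of each line, 9 reads stood against 9028, a ratio of 896 after scaling for depth, with an exact 95% interval from 472 to 1961 that covers counting error only. The log2 fold change of 769-P over ACHN, fitted with limma on log2(FPKM + 0.1), was -7.35 ± 0.21 (SE, as for every fold change here), with an adjusted p of 1.5e-06, and under si-NUF2 it was -7.39 ± 0.23, with an adjusted p of 2.25e-06. The pseudocount sets much of this size, since the value was -4.36 with a pseudocount of 1 and -9.26 with 0.01 under si-NC. In bulk RNA, fewer cells with a transcript and less of it per cell cannot be told apart.

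VHL lies on chromosome 3 of GRCh38, from 10141008 to 10152220 on the forward strand in GENCODE release 29, and no exon of another annotated gene overlaps its exons. The genes on either side were expressed in 769-P cells. BRK1, an actin regulator that ends 13.8 kb before VHL, was at 70.0 to 81.6 FPKM in 769-P and 59.9 to 79.1 FPKM in ACHN si-NC libraries, a log2 difference of 0.16 ± 0.13 (SE, adjusted p = 0.316). FANCD2, a DNA crosslink repair gene 39.1 kb before VHL, was at 3.76 to 4.25 FPKM and 3.20 to 4.48 FPKM. IRAK2, an innate immune kinase 12.6 kb after VHL, was at 4.06 to 4.57 FPKM in 769-P cells. In ACHN cells IRAK2 was at 8.05 to 72.9 FPKM, lowest in replicate 2. Farther away, EMC3 and JAGN1 were above 6 FPKM in all libraries, while IL17RE and PRRT3 stayed below 0.5 FPKM in 769-P and above 0.9 FPKM in ACHN cells. None of the plotted neighbours came as low as VHL in 769-P cells, but genes that did not reach 0.5 FPKM in any library were not plotted. Among those, AC022384.1 was at 0 FPKM, ATP2B2 at 0 to 0.00342 FPKM and FANCD2OS at 0 to 0.0489 FPKM in 769-P cells. In ACHN cells they were also at or near 0, with ATP2B2 at 0 to 0.0114 FPKM and FANCD2OS at 0.0300 to 0.0722 FPKM.

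**Figure D1:**
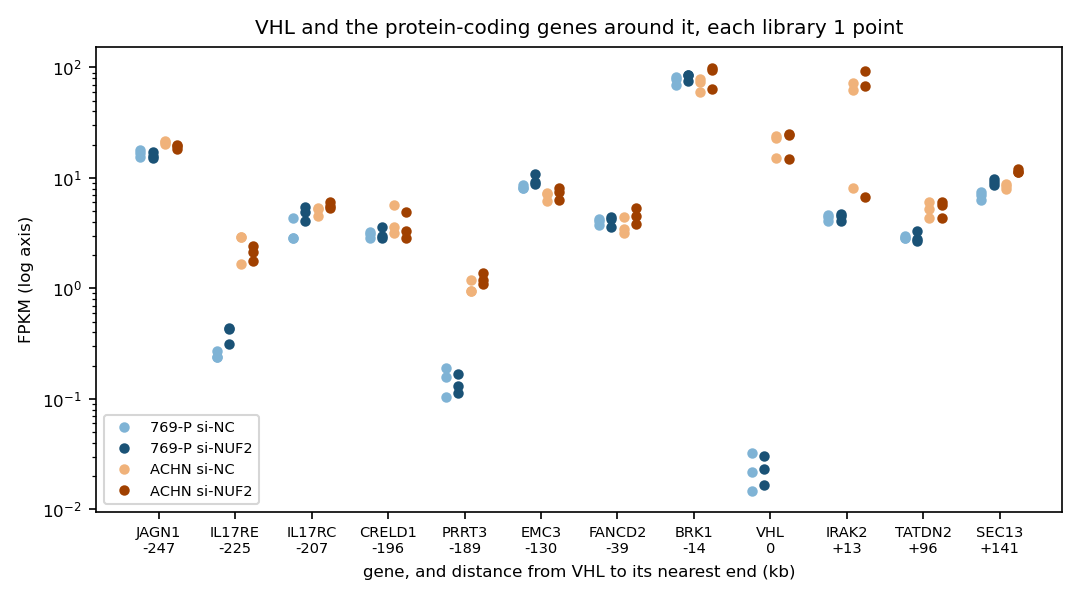
FPKM on a log axis of VHL and of the protein-coding genes within 250 kb of it that reached 0.5 FPKM in at least 1 library, ordered by distance from VHL in kb. Each library is 1 point, and VHL alone among them lies below 0.04 FPKM in all 769-P libraries, while BRK1 overlaps between the lines.

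Of the 4 oxygen sensors, EGLN1 was lower and EGLN2 higher in 769-P cells. EGLN1, the main prolyl hydroxylase, stood at 13.7, 13.4 and 15.7 FPKM in 769-P and 29.1, 20 and 28.9 FPKM in ACHN si-NC libraries, with no overlap (log2 fold change -0.81 ± 0.16, adjusted p = 0.00484). EGLN2 had 2.71, 2.42 and 2.25 FPKM against 1.99, 1.56 and 1.87 FPKM (log2 fold change 0.46 ± 0.15, adjusted p = 0.0328). This call was lost without ACHN replicate 2 or 3 (adjusted p = 0.0756 and 0.0613), and without any of the 769-P libraries (adjusted p from 0.0510 to 0.106). It was also lost with no filter on low values (adjusted p = 0.0518) and with the replicate number as a block (adjusted p = 0.0501). For EGLN2, 30.6% of the exon length is shared with other annotated genes, among them the readthrough gene RAB4B-EGLN2, and its reads are uncertain to that extent. HIF1AN differed little, with 8.91, 9.44 and 10.8 FPKM and 10, 10.8 and 10.4 FPKM (log2 fold change -0.06 ± 0.11, adjusted p = 0.619, 95% interval of the difference -0.32 to 0.19).

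EGLN3, a prolyl hydroxylase that is itself a strong HIF target, ran against the direction of most targets but at a very low level. It was at 0.189, 0.258 and 0.294 FPKM in 769-P si-NC libraries, from 41 to 70 reads, and at 0.00433, 0.00353 and 0.0155 FPKM in ACHN libraries, from 1 to 4 reads. The groups did not overlap under either siRNA. EGLN3 did not pass the filter of 0.5 FPKM, and the exact two-sided permutation test gave p = 0.1, the smallest that 3 against 3 libraries allow. The ratio of reads, 769-P over ACHN, was 32.1 under si-NC, with a counting interval from 14.4 to 88.6.

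All 3 HIF subunits were lower in 769-P cells. HIF1A was at 2.54, 2.24 and 2.03 FPKM in 769-P and 89.6, 44.2 and 78 FPKM in ACHN si-NC libraries (log2 fold change -4.80 ± 0.26, adjusted p = 1.67e-05, 27.9-fold lower). SNAPC1, a small nuclear RNA transcription factor that starts 14.1 kb after HIF1A, went the other way, with 10.1 to 10.9 FPKM in 769-P and 4.45 to 5.39 FPKM in ACHN cells. The neighbours PRKCH and SYT16 were low in both lines and lower in 769-P cells, as HIF1A was. Under si-NC PRKCH was at 0.0874 to 0.0884 FPKM in 769-P and 0.343 to 0.418 FPKM in ACHN cells. SYT16 was at 0.00223 to 0.00608 FPKM in 769-P and 0.304 to 0.422 FPKM in ACHN cells. EPAS1, the alpha subunit known as the main driver in ccRCC, was at 1.65, 2.53 and 2.14 FPKM against 18.5, 78.5 and 31.1 FPKM (log2 fold change -4.00 ± 0.49, adjusted p = 0.000508). ARNT, the shared partner, differed less, at 5.43, 4.97 and 4.88 FPKM against 9.75, 8.66 and 8.25 FPKM (log2 fold change -0.75 ± 0.11, adjusted p = 0.00111). The summed FPKM of HIF1A and EPAS1 was 3.75 to 4.77 in the 6 libraries of 769-P and 108 to 161 in the 6 libraries of ACHN cells. In 769-P cells ARNT thus exceeded the alpha subunits together in level, and in ACHN cells it was far below them.

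Of the 28 HIF targets, 26 passed the filter under si-NC, and 13 were lower in 769-P, 4 were higher and 9 did not pass the test. With VHL, the sensors and the subunits, 23 of 33 tested genes were called, 18 lower and 5 higher in 769-P cells. The lines differ widely, and 61.5% of the 15376 genes tested were called, against 69.7% of these genes. Of all genes tested, 4511 were called lower and 4949 higher in 769-P cells. At a change of at least 2-fold, 17 of 33 genes were called, 14 of them lower, which is 51.5% against 32.4% of all genes tested. The median log2 difference was -0.79 for the 33 genes and 0.04 for all genes. Of the 23 calls, 21 were kept under every alternative setting that was run, the exceptions being EGLN2 and BHLHE40.

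Matrix and protein folding genes were lower in 769-P cells or not called. LOX, which crosslinks collagen and elastin, had the largest fitted fold change of these genes on the log2(FPKM + 0.1) scale. It was at 0.159, 0.0899 and 0.106 FPKM in 769-P and 117, 33 and 115 FPKM in ACHN si-NC libraries (log2 fold change -8.43 ± 0.49, adjusted p = 2.1e-05). The ACHN libraries themselves spread more than 3-fold, with replicate 2 lowest, and no 769-P library reached 0.2 FPKM. The ratio of LOX reads, ACHN over 769-P, was 730 with a counting interval from 569 to 955, which overlaps that of VHL, and with a pseudocount of 0.01 the fitted change of VHL was the larger (-9.26 against -9.22). Under si-NUF2 LOX was at 0.132, 0.0940 and 0.0762 FPKM in 769-P and 73.6, 33.6 and 106 FPKM in ACHN libraries. PLOD2, a collagen lysyl hydroxylase, was at 1.16, 1.49 and 1.29 FPKM against 9.86, 7.90 and 19.2 FPKM (log2 fold change -3.00 ± 0.32, adjusted p = 0.000260). ERO1A, the oxidase that renews disulfide bond formation in the endoplasmic reticulum, was at 3.39, 3.61 and 3.14 FPKM against 10.2, 6.99 and 10.2 FPKM (log2 fold change -1.35 ± 0.17, adjusted p = 0.000568). P4HA1 and P4HA2 are alpha subunits of collagen prolyl hydroxylase. P4HA1 was at 10.3, 11.4 and 13.2 FPKM against 17.6, 16.4 and 18.9 FPKM (log2 fold change -0.56 ± 0.12, adjusted p = 0.00585). P4HA2 was at 3.29, 2.99 and 3.66 FPKM against 16.2, 3.23 and 13.6 FPKM (log2 fold change -1.38 ± 0.57, adjusted p = 0.0727). Replicate 2 of ACHN lay at the level of the 769-P libraries, and without it P4HA2 was called lower (log2 fold change -2.10, adjusted p = 0.000131), as it was with the replicate number as a block (adjusted p = 0.0480). MXRA5, a matrix protein gene, had no read in any 769-P library and at most 5 reads in an ACHN library.

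Carbonic anhydrases and stanniocalcins, which act on pH and ion balance, split between the lines. CA12, a membrane carbonic anhydrase, was the largest difference in the other direction, at 46.1, 77.6 and 63.2 FPKM in 769-P and 0.444, 0.259 and 0.789 FPKM in ACHN si-NC libraries (log2 fold change 6.81 ± 0.35, adjusted p = 1.29e-05). Under si-NUF2 it was at 33.8, 71.8 and 41.1 FPKM and 0.434, 0.178 and 0.347 FPKM, so that no library of one line overlapped the other. CA9, its relative on the cell surface and a widely used tissue marker of ccRCC, was at or below 0.12 FPKM in all 12 libraries, from 0 to 7 reads. A count of 0 allows up to 3 reads, which is 0.0624 FPKM of CA9 in the 769-P library that had none. CA9 did not differ beyond the spread (exact permutation p = 0.6 under si-NC), and 38.5% of its exon length is shared with ARHGEF39 on the opposite strand. CA9 RNA was thus at or near 0 in both lines that the labels call ccRCC cells. STC1 was at 0.0900, 0.556 and 0.246 FPKM against 16.2, 4.33 and 12.1 FPKM (log2 fold change -4.74 ± 0.60, adjusted p = 0.000588), and STC2 at 1.63, 1.10 and 1.08 FPKM against 24.1, 12.8 and 15 FPKM (log2 fold change -3.60 ± 0.27, adjusted p = 5.9e-05). The groups did not overlap for either stanniocalcin.

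The secreted signals went in different directions. ADM, the vasodilator adrenomedullin, was higher in 769-P cells, at 13.6, 11.4 and 7.61 FPKM against 0.551, 2.79 and 1.18 FPKM (log2 fold change 3.03 ± 0.52, adjusted p = 0.00235). ANGPTL4, an inhibitor of lipoprotein lipase, was lower, at 1.40, 1.19 and 0.833 FPKM against 29, 12.1 and 30.3 FPKM (log2 fold change -4.14 ± 0.38, adjusted p = 0.000130). VEGFA, the main angiogenic factor, was at 4.03, 4.59 and 3.94 FPKM against 13.5, 4.32 and 6.98 FPKM (log2 fold change -0.78 ± 0.38, adjusted p = 0.114). Replicate 2 of ACHN again lay among the 769-P values, and without it VEGFA was called lower, with a log2 fold change of -1.16 and an adjusted p of 0.0133.

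Of the genes of mitochondrial fuel use, NDUFA4L2, which lowers complex I activity, was at 0.0484, 0.0222 and 0.0110 FPKM in 769-P si-NC libraries, from 1 to 4 reads, and at 2.55, 4.08 and 3.25 FPKM in ACHN libraries. The ratio of reads, ACHN over 769-P, was 126 with a counting interval from 60.9 to 314 (log2 fold change -4.70 ± 0.24, adjusted p = 1.36e-05). PDK1, which keeps pyruvate out of the citric acid cycle, was at 0.853, 1.02 and 0.865 FPKM against 1.91, 1.46 and 1.73 FPKM (log2 fold change -0.79 ± 0.17, adjusted p = 0.00588). PFKFB3, a kinase that makes the activator of phosphofructokinase, was higher in 769-P cells, at 71.7, 83.2 and 58.7 FPKM against 24.4, 10.9 and 18.6 FPKM (log2 fold change 2.08 ± 0.29, adjusted p = 0.000916). It was the highest of the 36 genes in 769-P cells, with a mean of 71.2 ± 12.3 FPKM (SD, n = 3). Its relative PFKFB4 was low in both lines, at 1.45, 1.03 and 1.42 FPKM and 1.49, 1.04 and 0.982 FPKM (log2 fold change 0.18 ± 0.22, adjusted p = 0.508).

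Transcription and chromatin genes held 3 lower members and 1 higher one. BHLHE41 and BHLHE40 are related circadian repressors, and they went opposite ways. BHLHE41 was at 1.19, 1.05 and 1.63 FPKM in 769-P and 9.81, 2.36 and 6.06 FPKM in ACHN si-NC libraries (log2 fold change -1.92 ± 0.49, adjusted p = 0.0124). BHLHE40 was at 43.9, 51.7 and 40.1 FPKM against 35.7, 25 and 33.2 FPKM (log2 fold change 0.57 ± 0.16, adjusted p = 0.0186), a call that was lost without 769-P replicate 1 (adjusted p = 0.0517) or 2 (adjusted p = 0.0741). KDM7A, a histone demethylase, was at 0.428, 0.453 and 0.524 FPKM against 3.03, 2.21 and 2.48 FPKM (log2 fold change -2.19 ± 0.18, adjusted p = 8.27e-05). ANKRD37, an ankyrin repeat gene, was at 0.145, 0.290 and 0.132 FPKM against 0.877, 0.623 and 0.551 FPKM (log2 fold change -1.43 ± 0.29, adjusted p = 0.00505). UFSP2 on the opposite strand shares 35.2% of the exon length of ANKRD37, and the counting is not stated to use strand.

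Against 61.5% of all genes tested, 1 of the 7 genes of mitophagy, growth restraint and lipid storage passed the test. It was DDIT4, an inhibitor of mTORC1, at 16.9, 20.6 and 13.1 FPKM against 157, 74.2 and 102 FPKM (log2 fold change -2.63 ± 0.29, adjusted p = 0.000299). An antisense RNA on the opposite strand shares 41.2% of its exon length. BNIP3 and BNIP3L, receptors that mark mitochondria for removal, did not pass the test under si-NC (adjusted p = 0.0771 and 0.0542). BNIP3 was at 18, 16.3 and 18.1 FPKM and 21.4, 19.6 and 21.2 FPKM, and BNIP3L at 10.7, 12.9 and 13.6 FPKM and 20.2, 13.7 and 18.8 FPKM. Both calls depend on the scaling, since with FPKM as deposited BNIP3 and BNIP3L were called lower in 769-P cells (adjusted p = 0.0456 and 0.0425), and likewise with median-ratio scaling (0.0487 and 0.0436). BNIP3L was also called lower with all libraries fitted jointly (adjusted p = 0.0363) and without ACHN replicate 2 (adjusted p = 0.00840). NDRG1, a growth-restraining gene, was at 15.8, 30.4 and 19.3 FPKM against 17.3, 4.38 and 10.4 FPKM (log2 fold change 1.21 ± 0.49, adjusted p = 0.0703), and it was called higher in 769-P cells only without ACHN replicate 1 (adjusted p = 0.0201). The lipid droplet genes PLIN2 and HILPDA were likewise called higher only without that library, with adjusted p values of 0.140 and 0.183 with all libraries and 0.0144 and 0.0425 without it. PLIN2 was at 19.2, 19.1 and 15.5 FPKM against 19.2, 7.44 and 12 FPKM, and HILPDA at 5.17, 5.45 and 5.31 FPKM against 5.56, 2.98 and 4.45 FPKM. INSIG2, which holds back sterol synthesis, was at 5.42, 5.77 and 7.80 FPKM and 7.33, 4.16 and 5.53 FPKM (log2 fold change 0.21 ± 0.23, adjusted p = 0.462).

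**Figure D2:**
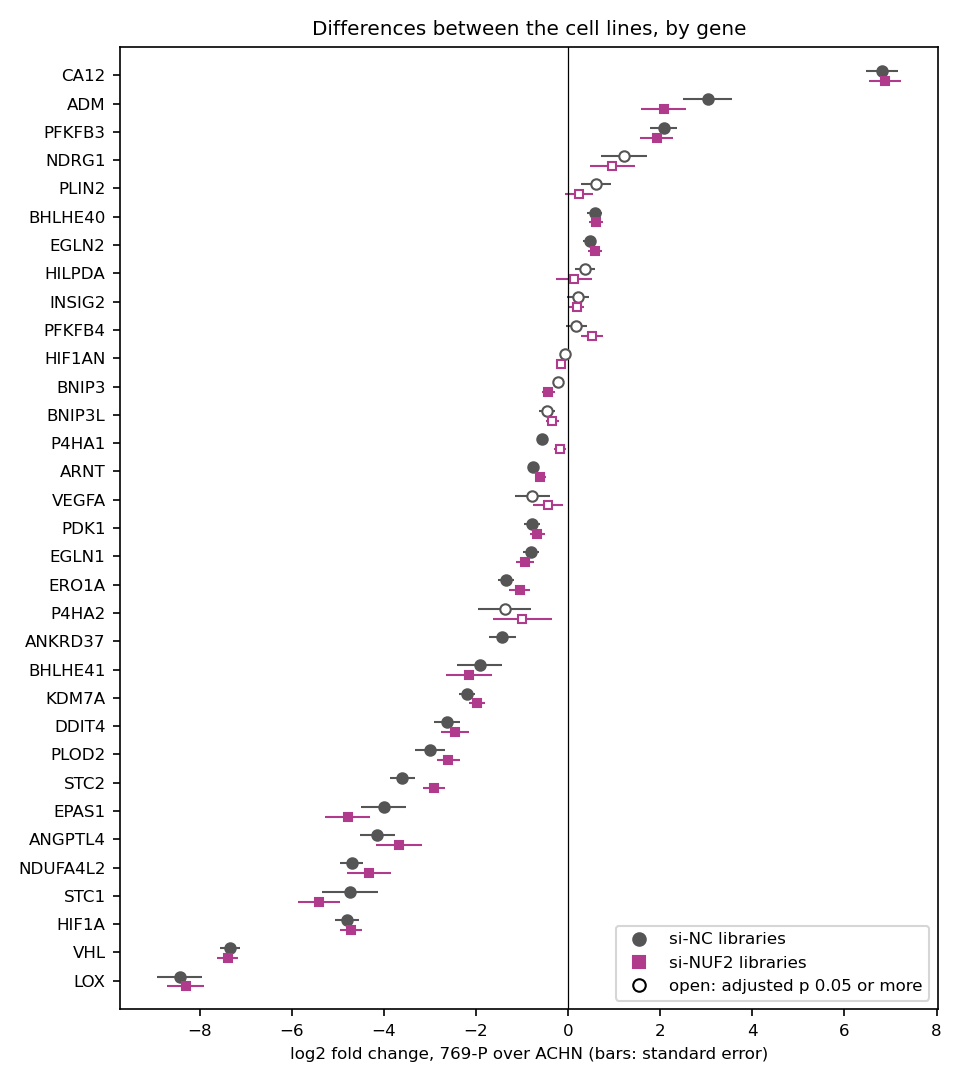
Log2 fold change of 769-P over ACHN cells for the genes that passed the filter, with its standard error, from si-NC libraries (circles) and si-NUF2 libraries (squares). Filled symbols passed the test, LOX and VHL lie at the low end, CA12 lies near 7, and the 2 sets of libraries give nearly the same order.

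The line difference was also measured under si-NUF2, in 6 libraries that share none with the si-NC ones. There 32 of the 36 genes were tested and 22 called, 17 lower and 5 higher in 769-P cells, which is 68.8% against 61.8% of all 15266 genes tested. Of all genes tested, 4522 were called lower and 4916 higher. At 2-fold or more, 16 were called, which is 50% against 30.3%. The calls of 21 genes were shared in the same direction, 91.3% of the si-NC calls and 95.5% of the si-NUF2 calls. Among all genes the shared calls were 85.9% and 86.1%, and same-numbered libraries of a line deviated together, so that the 2 sets are not fully independent. P4HA1 was called under si-NC and not under si-NUF2 (adjusted p = 0.297), BNIP3 was called lower under si-NUF2 and not under si-NC (log2 fold change -0.43, adjusted p = 0.0350), and ANKRD37 fell below the filter under si-NUF2, with groups that did not overlap. The BNIP3 call was lost without 769-P replicate 2 or 3 or ACHN replicate 1 or 3 (adjusted p from 0.0503 to 0.115), and with no filter on low values (adjusted p = 0.0622). Whether such a difference between siRNAs itself passes a test is given with the response to si-NUF2.

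Replicate 2 of ACHN cells carried lower levels of most of these genes. Of the 32 genes that reached 0.5 FPKM in at least 3 ACHN libraries, 23 were lowest in replicate 2 under both siRNAs, 4 were highest there and 5 were neither. Among all 15108 genes at that level, 26.1% were lowest and 24.3% highest in replicate 2 under both siRNAs. The median absolute distance of replicate 2 from the mean of replicates 1 and 3 was 0.62 (si-NC) and 0.65 (si-NUF2) on the log2 scale for the 32 genes, and 0.23 and 0.22 for all genes. P4HA2 had the largest such distance under both siRNAs, -2.17 and -2.42. LOX was at -1.81 and -1.39, and EPAS1 lay on the other side, at 1.70 and 1.68. STC1, BHLHE41, NDRG1 and ANGPTL4 were also among the low ones. These are differences between libraries of 1 group, with no test.

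The alpha subunits exchanged their order in these libraries. In ACHN si-NC cells HIF1A was 4.83 and 2.51 times EPAS1 in replicates 1 and 3, and 0.563 times in replicate 2. Under si-NUF2 the ratios were 3.02 and 1.38 in replicates 1 and 3, and 0.367 in replicate 2. EPAS1 was at 27.9, 118 and 48.1 FPKM and HIF1A at 84, 43.2 and 66.6 FPKM in the si-NUF2 libraries. Besides EPAS1, the genes that were highest in replicate 2 were ADM, NDUFA4L2 and HIF1AN. VHL was lowest in replicate 2 under both siRNAs, at 15 and 14.9 FPKM. Other measures moved in the same libraries: PAX8 was at 57.1 and 57.6 FPKM in replicate 2 against 144 to 199.5 FPKM in the other ACHN libraries, and PDGFRB, a pericyte marker, was at 1.17 and 2.79 FPKM against 0.23 to 0.62 FPKM. The 6 fibroblast and pericyte markers summed to 4.96 to 10.8 FPKM over the ACHN libraries. Reads in these libraries numbered 37295124 and 34180157, within the range of the rest. The part of these measures in the result was not tested. Without replicates 2 of ACHN, 25 of 33 genes differed between the lines under si-NC, 21 lower and 4 higher in 769-P cells, which is 75.8% against 60.8% of all 15988 genes tested. Of all genes tested, 4711 were called lower and 5013 higher.

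Sequences before the start site were set beside these levels, because the genes are known for hypoxia response elements. Such an element has the core ACGTG or GCGTG, which reads CACGT or CACGC on the other strand. In the 250 bases before each RefSeq start (GRCh38.p14), 43.2% of 35116 promoters held a core on either strand, and 80.6% of the 36 promoters listed for these genes did. By gene, 25 of the 29 members with a promoter in the table held one, against 47.4% of all 27305 genes. Most members were listed because they are known HIF targets, and the promoters were not matched for base composition. The shares are therefore no test of enrichment. VHL, STC1, NDUFA4L2, HILPDA, BNIP3L, NDRG1 and VEGFA had no entry. A core was present in 14 of 15 promoter-listed genes that were lower in 769-P cells, in all 5 that were higher and in 4 of 6 that were not called, so that its presence did not separate the directions. A match is a run of letters and not a measured site, and a core inside CACGTG is counted once together with its mirror image. Promoters of 5 genes are shown with the cores in capitals: LOX and CA12, with the largest fitted changes between lines in each direction on the log2(FPKM + 0.1) scale, CA9, which was near 0 in both lines, ADM, whose response to si-NUF2 differed between the lines in the fit with blocks, and ERO1A, which rose with si-NUF2.
LOX, chr5:122078260-122078509, reverse strand, the most upstream of 3 starts: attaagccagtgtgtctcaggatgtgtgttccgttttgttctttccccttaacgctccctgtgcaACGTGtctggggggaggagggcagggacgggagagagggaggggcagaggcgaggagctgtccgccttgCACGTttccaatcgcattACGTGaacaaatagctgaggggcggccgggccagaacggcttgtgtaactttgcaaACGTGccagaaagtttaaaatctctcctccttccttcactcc
CA12, chr15:63381847-63382096, reverse strand: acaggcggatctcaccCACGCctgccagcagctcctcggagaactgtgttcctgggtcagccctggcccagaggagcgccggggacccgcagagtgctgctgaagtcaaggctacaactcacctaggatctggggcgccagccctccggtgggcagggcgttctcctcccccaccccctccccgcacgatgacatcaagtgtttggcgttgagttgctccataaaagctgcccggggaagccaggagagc
CA9, chr9:35673678-35673927, forward strand: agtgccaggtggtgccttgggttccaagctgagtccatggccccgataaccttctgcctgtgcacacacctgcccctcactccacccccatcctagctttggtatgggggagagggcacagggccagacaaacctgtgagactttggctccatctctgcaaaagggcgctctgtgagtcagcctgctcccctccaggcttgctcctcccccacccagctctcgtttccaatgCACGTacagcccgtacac
ADM, chr11:10304823-10305072, forward strand: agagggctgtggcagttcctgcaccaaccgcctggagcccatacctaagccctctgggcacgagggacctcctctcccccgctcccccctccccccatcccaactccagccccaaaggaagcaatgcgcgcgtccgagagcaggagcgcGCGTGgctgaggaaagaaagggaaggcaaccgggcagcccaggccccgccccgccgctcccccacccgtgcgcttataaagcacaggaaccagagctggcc
ERO1A, chr14:52695559-52695808, reverse strand: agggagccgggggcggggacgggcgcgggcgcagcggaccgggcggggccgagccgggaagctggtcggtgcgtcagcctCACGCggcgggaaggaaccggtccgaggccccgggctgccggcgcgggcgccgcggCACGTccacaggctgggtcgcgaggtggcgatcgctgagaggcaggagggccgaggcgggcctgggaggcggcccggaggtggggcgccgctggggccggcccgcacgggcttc
LOX held 4 cores in this window and ERO1A 2, while CA12, CA9 and ADM held 1 each. LOX, far lower in 769-P cells, CA12, far higher, and CA9, near 0 in both lines, thus each had at least 1 core.

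Under NUF2 knockdown in 769-P cells ERO1A and P4HA2 rose, and the other 25 genes tested were not called. ERO1A was at 6.83, 6.05 and 5.83 FPKM under si-NUF2 and 3.39, 3.61 and 3.14 FPKM under si-NC (log2 fold change 0.88 ± 0.10, adjusted p = 0.00599), and the groups did not overlap. It was called under every alternative that was run, narrowly with all 12 libraries in one fit (adjusted p = 0.0486). P4HA2 rose from 3.29, 2.99 and 3.66 to 4.55, 4.47 and 5.60 FPKM (log2 fold change 0.55 ± 0.12, adjusted p = 0.0364), also without overlap. Its call was lost when any of the 6 libraries was left out (adjusted p from 0.0662 to 0.112). It was also lost with no filter on low values (adjusted p = 0.0885) and with all 12 libraries in one fit (adjusted p = 0.763). ERO1A and P4HA2 were 2 of 27 genes tested, with 0 called lower, which is 7.41% against 9.98% of all 14155 genes tested. At an unadjusted p under 0.05 there were 8, against 3883 of all 14155 genes. Of the 9 genes not tested here, VHL, LOX and NDUFA4L2 were nearly silent in 769-P cells and had overlapping groups. STC1, with 8 to 74 reads per library, was lower in all 3 pairs of same-numbered libraries, by -0.24, -0.77 and -0.83 on the log2 scale. KDM7A was lower in all 3 as well, by -0.11, -0.21 and -0.01. The groups of both overlapped (exact permutation p = 0.5). EGLN3, ANKRD37 and CA9 overlapped too, with pairs in mixed directions, and MXRA5 had no read.

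Same-numbered libraries deviated together within each line, and blocking on this number called more genes. With the block 9 of the 27 genes were called in 769-P cells, 33.3% against 27.5% of all genes tested. ERO1A, P4HA2 and P4HA1 were higher. P4HA1 went from 10.3, 11.4 and 13.2 to 14.3, 13.4 and 18.1 FPKM, a log2 fold change of 0.39 with a blocked adjusted p of 0.0160. The 6 lower ones were BHLHE41 (-0.63, blocked adjusted p = 0.0352), PLIN2 (-0.55, 0.0342), CA12 (-0.38, 0.0456), BNIP3 (-0.36, 0.0157), ADM (-0.32, 0.0497) and HIF1AN (-0.27, 0.0173). BHLHE41 was at 0.589, 0.740 and 1.06 FPKM under si-NUF2 and 1.19, 1.05 and 1.63 FPKM under si-NC. PLIN2 was at 16.4, 12.9 and 8.32 FPKM under si-NUF2, BNIP3 at 15.2, 12.4 and 13 FPKM and HIF1AN at 7.46, 7.78 and 8.61 FPKM, each lower than the si-NC library of its number in all 3 pairs. None of these 9 changes reached 2-fold. HIF1A and EPAS1 were not called in 769-P cells, with log2 fold changes of -0.02 (95% interval -0.32 to 0.28) and -0.17 (-0.67 to 0.32).

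In ACHN cells no gene of the list was called in the fit without the block, where limma called 0% of 15116 genes at an adjusted p under 0.05, and 1 of 32 genes had an unadjusted p under 0.05. That gene was STC2, which was at 8.04, 10.5 and 9.63 FPKM under si-NUF2 and 24.1, 12.8 and 15 FPKM under si-NC (log2 fold change -0.81 ± 0.25, adjusted p = 0.446). In all genes 1238 had an unadjusted p under 0.05. With the block 6 of 32 genes were called, 18.8% against 12.2% of all genes tested. EPAS1 was higher in each of the 3 pairs, by 0.58, 0.58 and 0.63 on the log2 scale, with a blocked adjusted p of 0.0116. ERO1A was at 18.8, 10.2 and 12.4 FPKM under si-NUF2 and 10.2, 6.99 and 10.2 FPKM under si-NC, higher in each pair by 0.88, 0.54 and 0.28 (blocked adjusted p = 0.0423). ADM was at 1.03, 3.70 and 1.98 FPKM and 0.551, 2.79 and 1.18 FPKM, higher by 0.79, 0.40 and 0.70 (0.0353). PFKFB3 was higher as well, at 34.1, 12.1 and 24.8 FPKM under si-NUF2 against 24.4, 10.9 and 18.6 FPKM (log2 fold change 0.37, blocked adjusted p = 0.0468). BHLHE41 and INSIG2 were lower, by -0.40 and -0.39 on the log2 scale (blocked adjusted p = 0.0273 and 0.0299). BHLHE41 was thus called lower with the block in both lines, and ERO1A higher. INSIG2 was at 5.10, 3.39 and 4.14 FPKM under si-NUF2 and 7.33, 4.16 and 5.53 FPKM under si-NC. VHL was not called in ACHN cells, with a log2 fold change of 0.07 and a 95% interval from -0.59 to 0.73.

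**Figure D3:**
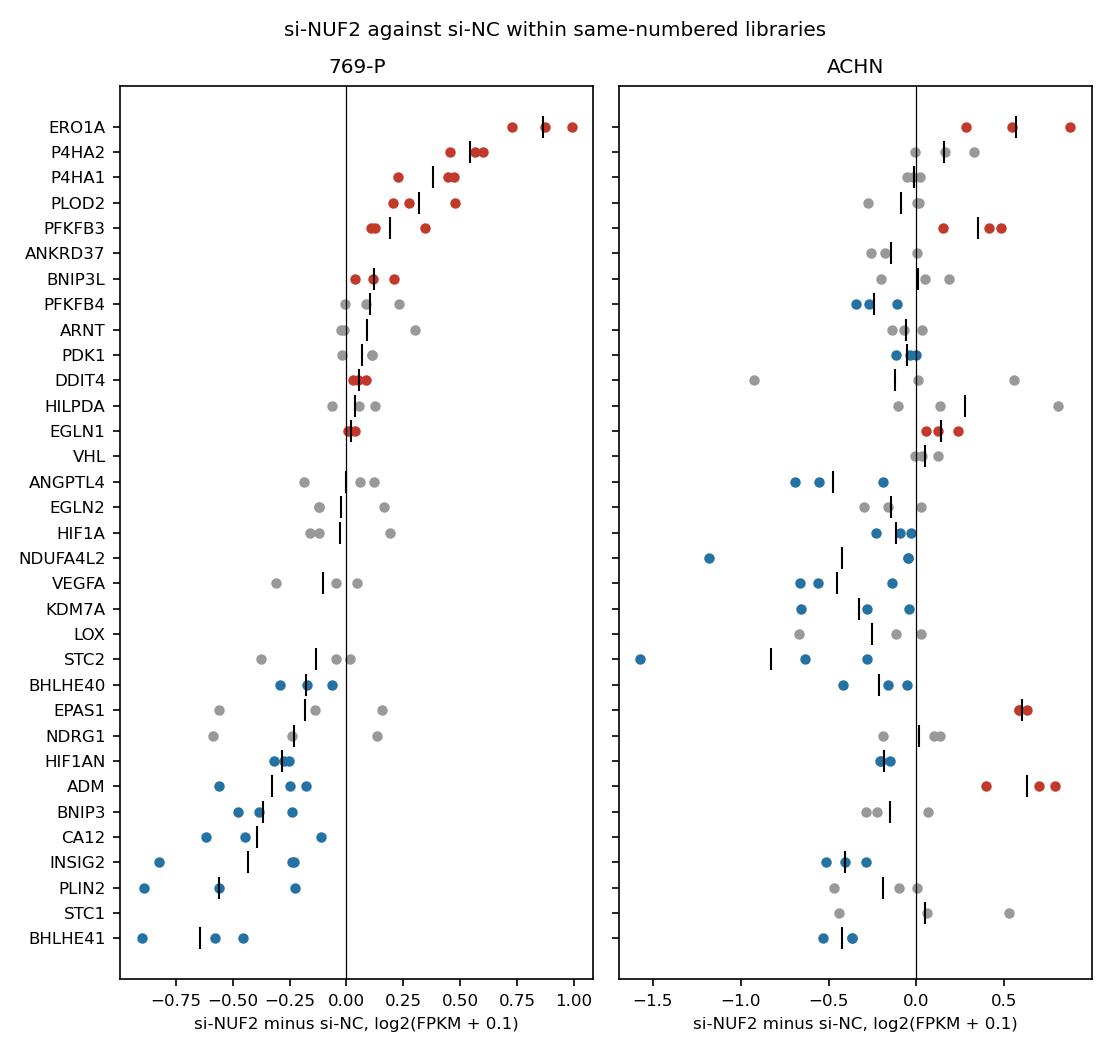
Difference of si-NUF2 and si-NC libraries of the same replicate number, on the log2(FPKM + 0.1) scale, in 769-P (left) and ACHN cells (right). Points are the 3 pairs, coloured red where all 3 are above 0, blue where all are below 0 and grey otherwise, and the black tick is their mean. ERO1A is red in both lines, BHLHE41 is blue in both, and ADM is blue in 769-P and red in ACHN cells.

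Of the 27 genes at 0.5 FPKM or more in at least 3 libraries of 769-P cells, 8 were higher and 8 lower in all 3 pairs, and of the 32 in ACHN cells 5 were higher and 12 lower. Among all genes, 63.0% kept 1 direction in all 3 pairs of 769-P and 54.9% in all 3 pairs of ACHN cells, so that such runs are common here. The difference of the response between the lines was tested as an interaction. It was called for 0 of 33 genes, against 0% of all 16564 genes tested, and 0 of the 33 had an unadjusted p under 0.05, against 776 of all genes. With line and replicate number as blocks, 1 gene was called, against 1.52% of all genes tested. This was ADM, with a difference of -0.97 (769-P minus ACHN, blocked SE 0.15, blocked adjusted p = 0.0449). For ERO1A the difference was 0.28, with a 95% interval from -0.38 to 0.95, and it was not called.

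Other genes of the pathway were taken from a list of 63 further VHL partners, HIF regulators and HIF targets. Under si-NC 55 were tested and 30 called between the lines, 13 higher and 17 lower in 769-P cells, which is 54.5% against 61.5% of all genes. The largest lower ones were ARNT2, a relative of ARNT (log2 fold change -4.75 ± 0.33, adjusted p = 4.2e-05), CYGB, a globin (log2 fold change -4.41 ± 0.29, adjusted p = 3.68e-05), and TMEM45A, a membrane protein gene (log2 fold change -3.05 ± 0.25, adjusted p = 9.19e-05). ARNT2 was at 0.0219, 0.0524 and 0.0399 FPKM in 769-P and 2.20, 4.87 and 4.55 FPKM in ACHN cells. The largest higher ones were the cell cycle gene CCND1 (log2 fold change 2.16 ± 0.47, adjusted p = 0.00631), the mitochondrial gene FAM162A (log2 fold change 1.83 ± 0.10, adjusted p = 1.67e-05) and the pluripotency factor POU5F1 (log2 fold change 1.74 ± 0.24, adjusted p = 0.000798), whose pseudogenes may share its reads. CCND1, cyclin D1, was at 298, 238 and 266 FPKM against 109.8, 27.7 and 75.3 FPKM, again lowest in replicate 2 of ACHN. Under si-NUF2 35 of 55 were called, 17 higher and 18 lower, which is 63.6% against 61.8% of all genes. MIR210HG (log2 fold change 1.98 ± 0.38, adjusted p = 0.00392) and AKAP12 (log2 fold change 1.69 ± 0.48, adjusted p = 0.0196) were among the largest higher ones there, and ARNT2, CYGB and RAB20 (log2 fold change -3.49 ± 0.24, adjusted p = 5.01e-05) the largest lower ones.

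Under NUF2 knockdown in 769-P cells 11 of 51 were called, 5 higher and 6 lower, which is 21.6% against 9.98%. RAB20, a small GTPase (log2 fold change -1.34 ± 0.28, adjusted p = 0.0301), CCND1 (log2 fold change -1.01 ± 0.16, adjusted p = 0.0141) and VLDLR, a lipoprotein receptor (log2 fold change -0.57 ± 0.11, adjusted p = 0.0268), were the largest lower ones. CCND1 was at 165, 119 and 115 FPKM under si-NUF2. TGFA, a ligand of the EGF receptor (log2 fold change 0.70 ± 0.07, adjusted p = 0.00470), and SART1, which binds HIF1A (log2 fold change 0.68 ± 0.14, adjusted p = 0.0324), were among the largest higher ones. With the block 24 of 51 were called in 769-P cells, 12 in each direction, which is 47.1% against 27.5% of all genes tested. In ACHN cells 0 of 55 were called without the block, against 0% of all genes. There 7 had an unadjusted p under 0.05, against 1238 of all 15116 genes. The block gave 8 calls in ACHN cells, 5 higher and 3 lower, which is 14.5% against 12.2% of all genes. The interaction was called for 0 of 55 genes, against 0% of all genes. For it 1 had an unadjusted p under 0.05, against 776 of all 16564 genes. With the blocks it was called for 4, which is 7.27% against 1.52% of all genes.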

How the data were processed

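The deposited values were FPKM per gene in 12 libraries. According to the methods and processing notes, the authors sequenced on a NovaSeq 6000, aligned to hg38 with HISAT2 2.0.5, and counted genes of GENCODE release 29 with featureCounts 1.5.0-p3. The strand setting is not given in the sources used here, so overlapping genes on opposite strands cannot be told apart. No per-sample column was left without a sample. Low FPKM values corresponded to whole reads, within 0.02 reads, in 96.9 to 97.4% of cases, which gave recovered totals of 29244018 to 38864846 reads per library. Intervals and floors (3 reads) rest on them and cover counting error only.

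FPKM were scaled by a trimmed mean of log ratios within each fit (30% of ratios and 5% of levels trimmed). Genes at 0.5 FPKM or more in at least 3 libraries were tested on log2(FPKM + 0.1), a scale that understates changes of low genes, with limma 3.58.1 in R 4.3.3 (trended empirical Bayes). Line differences used the 6 libraries of 1 siRNA, responses the 6 of 1 line and the interaction all 12. P-values were adjusted by Benjamini-Hochberg over all genes tested, and calls were made at 0.05. An exact two-sided permutation test was used for single genes below the filter. The line difference under si-NC and the responses share si-NC libraries, so no overlap between them is given. Fits were tested on simulated data with independent noise, smaller than the spread of the ACHN libraries, and without pairing by replicate number. That test does not cover these features of the data. No 2 replicates agreed within sampling noise.

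Whether replicate numbers pair libraries was checked by the correlation of deviations from group means across genes. For si-NC and si-NUF2 libraries of one number it was 0.19 to 0.36 in the 769-P line and 0.46 to 0.73 in the ACHN line, and they were taken as paired within lines. Blocked values of the responses are given where they change a call. Between lines the numbers did not pair (-0.06 to 0.04).

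All 36 genes are described. Of 63 other pathway genes, counts are given and those called with the 3 largest changes per direction are named, except for 1 item that is not reported here. The members and lists were chosen with earlier results of these data known. Alternatives were pseudocounts of 1 and 0.01, median-ratio scaling, FPKM as deposited, no filter or one of 1 FPKM, the replicate block, a joint fit of all 12 libraries, and leaving out each replicate. Promoters were taken from a RefSeq table for GRCh38.p14, in which 29 of the 36 genes were matched, and searched 250 bases before the start.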

Additional observations from a re-analysis of the deposited data

Results flagged for a closer look

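The response of ADM, adrenomedullin, to si-NUF2 differed between the lines by -0.97 on the log2 scale (769-P minus ACHN) when line and replicate number were blocks in the limma fit, with a blocked adjusted p of 0.0449 and an adjusted p of 1.00 without the blocks. Under si-NUF2 it was lower in each of the 3 pairs of 769-P cells, by -0.25, -0.18 and -0.56, and higher in each of the 3 pairs of ACHN cells, by 0.79, 0.40 and 0.70.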

How the results depend on the processing

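No call reversed its direction in any comparison and alternative that was run. Under si-NC 21 of 23 calls between lines, and under si-NUF2 20 of 22, were kept in all 15 alternatives. The number of genes higher in 769-P cells under si-NC was 5 with all libraries and 3 to 8 when 1 replicate was left out: 3 without 769-P replicate 1 or 2, and 8 without ACHN replicate 1. Among all genes tested, 4949 were called higher with all libraries, 4363 and 4214 without 769-P replicate 1 or 2, and 5071 without ACHN replicate 1. Under si-NUF2 the number for these genes was 5 and became 8 without ACHN replicate 1, against 4916 and 4976 among all genes. In 769-P cells 2 genes were called higher with si-NUF2. The count fell to 1 with no filter on low values, with all 12 libraries in one fit and without any replicate. Among all genes those called higher fell from 745 to 353 with no filter, to 419 in one fit and to 206 to 616 without 1 replicate. The 1 gene called lower without si-NUF2 replicate 1 was BNIP3, while among all genes those called lower fell from 667 to 335. The cause was not tested. With the replicate block, which pairs libraries by number, the genes called higher in 769-P cells went from 2 to 3 (P4HA1 added) and those called lower from 0 to 6. The block took those called in ACHN cells from 0 to 4 higher and from 0 to 2 lower, and the interaction from 0 to 1 lower. It changed no other call of these genes within a line. Between lines, where the numbers do not pair, it changed 2 calls under si-NC, with EGLN2 lost (adjusted p = 0.0501) and P4HA2 called lower (adjusted p = 0.0480). Leaving out replicates 2 of ACHN together was chosen after seeing the data. Depth limits VHL, EGLN3, CA9, MXRA5 and NDUFA4L2, which rest on few reads in at least 1 line. It also limits LOX (13 to 26 reads per 769-P library), ANKRD37 (11 to 24) and STC1 (8 to 74).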
